A study of Arabidopsis thaliana with 18 samples.

Results

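The nuclear genes of the photosystems and their light-harvesting antennae were followed through a wound time course of Arabidopsis thaliana leaves. The members were the probe sets, other than array controls, whose gene symbol begins with PSA, PSB, PET, LHCA, LHCB or CAB, or whose gene title speaks of a photosystem or of a chlorophyll a/b binding protein. This rule found 46 probe sets for 46 loci among the 22810 probe sets of the array, 41 of them through the symbol and 5 through the title alone. By role they were 11 photosystem I subunits, 6 antenna proteins of photosystem I, 13 photosystem II subunits or assembly factors, 8 antenna proteins of photosystem II, 2 electron carriers and 6 others. The 6 others were APO1, APO2, APO3, APO4, PSI-P and PSAT. PSAT is an aminotransferase of serine synthesis that the rule takes in only because its symbol begins with PSA. Leaving PSAT out, 45 members had the same counts of calls in all 4 comparisons. The probe sets of LHCA2, CAB3 and LHCB2.1 carry names that mark probes shared between genes, so related antenna genes may add to their signals.

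Photosystem II takes electrons from water and photosystem I lifts them to ferredoxin, and the cytochrome b6f complex and plastocyanin carry electrons between the photosystems. Antenna proteins bind chlorophyll and pass excitation to the reaction centres. The reaction-centre proteins themselves are encoded in the chloroplast, whereas the members here are nuclear genes whose products are imported. In leaves, nuclear photosynthesis genes are known to respond to light, sugar and the circadian clock, and many fall in transcript level after wounding or jasmonate treatment.

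RNA of whole leaves was measured on 18 Affymetrix ATH1 arrays, 1 sample each, with 3 arrays lettered A, B and C in each of 6 labelled groups. The plants were OE, which over-express StZFP2, a zinc finger gene of potato, in the lines OEEV47-1 and OEEV47-2, or the wild type Col-0, and each genotype had unwounded control leaves, leaves 1 h after wounding and leaves 6 h after wounding. The OE samples are pools of both lines in the sample labels, while the design text lists the lines separately, and the promoter of the transgene is not given in the sources used here. The array carries probes for Arabidopsis genes, so the potato transgene was not checked. Neither plant age, nor the hour of harvest, nor an unwounded control taken at 6 h is given in the labels, so time after the wound and time of day cannot be told apart. The labels do not state whether the lettered replicates are separate plants, so each p-value reads the scatter among the arrays at hand, part of which may be technical.

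Every Col-0 array was nearest, by correlation over all probe sets kept, to an array of its own label, whereas 6 of the 9 OE arrays were nearest to an array of another treatment label. Those were the arrays labelled OE control C, OE 1 h A, B and C, and OE 6 h B and C. Time was therefore tested in Col-0 alone, and OE was set against Col-0 only over all labels. The leaf label was checked against markers: the summed signal of RBCS1A, CA1 and RCA, which mark mesophyll, lay between 75273 and 113494 on all arrays, and the root genes PRP3 and EXPA7 and the floral genes AP3 and PI were below the 40th percentile on every array. The third root gene, PYK10, was above it on some arrays and read 1112, 158 and 404 in Col-0 leaves at 6 h, and the third floral gene, AG, passed it on a few OE arrays, at most with 115 on the array labelled OE 1 h B. In a bulk leaf sample, fewer cells of a type and less RNA per cell cannot be told apart. Precision is limited by the count of arrays, 3 per group.

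Values are linear MAS5 signals, which the authors had scaled to a trimmed mean near 500 per array. The mean signal of a member over the 18 arrays ran from 115 for APO4 to 41451 for PSAK, with a median over members of 21547. Probe sets differ in how well they bind, so these signals do not rank the genes by RNA level. They place the members on the array's scale: 42 members had a mean above 1000, 33 above 10000 and 25 above 20000, and between 17 and 24 of the 50 highest signals of any array belonged to members. All 46 members passed the filter on dim probe sets, and none fell below the 40th percentile of any array. Array maxima ran from 34578 to 49882, and 10 members exceeded the lowest of these maxima on at least 1 array.

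The comparison of Col-0 leaves 6 h after wounding with Col-0 leaves 1 h after wounding gave the most calls among the members. At an adjusted p below 0.05 (limma with a variance trend, Benjamini-Hochberg over 14823 probe sets), 15 members rose and 1 fell, which is 34.8% of the members, where 42.7% of all probe sets were called. Of all probe sets 25.4% were called higher and 17.3% lower, while 32.6% of the members were called higher. The median log2 change of the members was 0.25, against 0.13 over all probe sets tested, and the median size was 0.27, against 0.44. The 6 h arrays all lay above the 1 h arrays for 29 members and all below for 2, PSB28 and LHCA5, and over all probe sets 56.1% had no overlap between these groups.

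The count depended on the scaling. When array medians were subtracted, the median of all probe sets moved by -0.20 on the log2 scale, 7 members rose and 2 fell, and 30 members had a positive change in place of 40. That subtraction moves every probe set alike, so the distance of 0.12 between the members' median and that of all probe sets could not change. Under quantile normalization 13 members rose and 1 fell, and this distance was 0.12. Of all called probe sets 59.6% were higher as deposited, 52.2% with quantile normalization and 41.1% with medians subtracted. The 3′ to 5′ signal ratio of the actin control probes, which reads RNA integrity, ranged from 4.12 to 6.97 at 6 h, below the range of 7.28 to 10.7 at 1 h, and its part in the result was not tested.

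**Figure D1:**
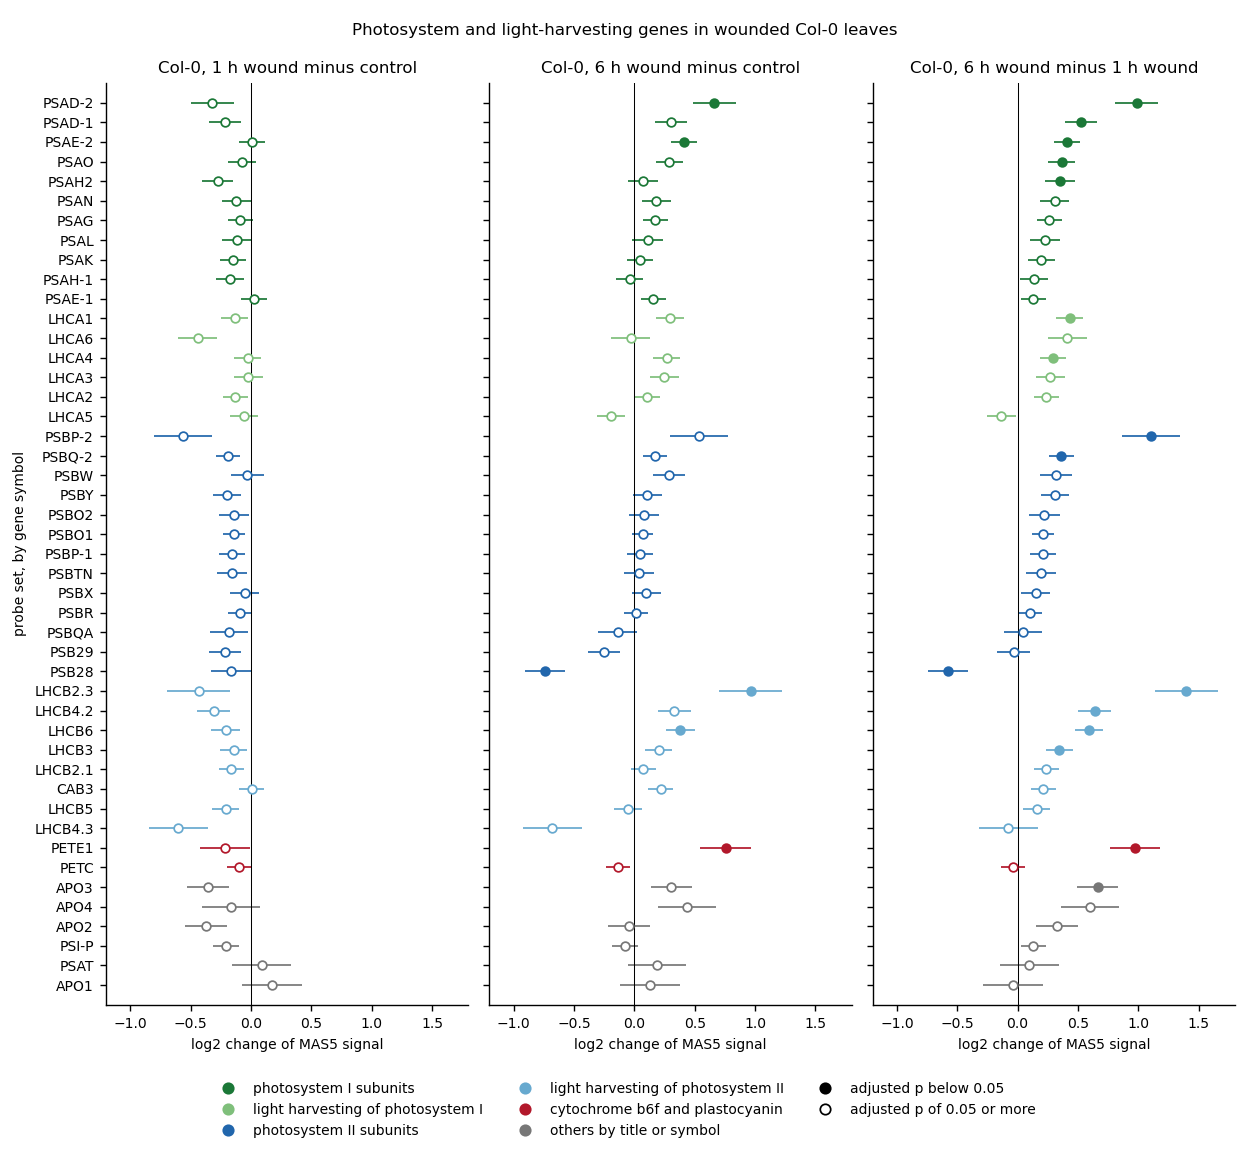
The log2 change of signal of each of the 46 members (one row each, coloured by role) is plotted for Col-0 at 1 h against control, at 6 h against control and at 6 h against 1 h, with bars of 1 SE; filled points have an adjusted p below 0.05. No point is filled at 1 h, 6 are filled at 6 h against control, and 16 are filled at 6 h against 1 h, all of these to the right of 0 except PSB28.

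Among photosystem I subunits, 5 of 11 rose at 6 h against 1 h, and all 11 had a positive change. PSAD-2, one of the genes for the stromal subunit D that docks ferredoxin, read 14633, 14626 and 10207 in Col-0 control leaves, 13161, 9371 and 9066 at 1 h, and 20140, 23591 and 18263 at 6 h. All 6 h arrays lay above all others, and the log2 change at 6 h against 1 h was 0.99 ± 0.18 (SE, n = 3 each, limma adjusted p = 0.000835). PSAD-1, the other gene for this subunit, read 21459, 24551 and 20347 at 6 h and 16200, 14653 and 15231 at 1 h, a log2 change of 0.52 ± 0.13 (limma adjusted p = 0.00761). PSAE-2, a gene for subunit E beside the same docking site, read 9794, 9840 and 10868 at 6 h and 7866, 7048 and 8132 at 1 h, again without overlap. Its log2 change was 0.41 ± 0.11. PSAO and PSAH2, from the side of the complex where the photosystem II antenna can dock, rose by log2 changes of 0.36 ± 0.11 and 0.35 ± 0.13. The remaining 6 (PSAE-1, PSAG, PSAH-1, PSAK, PSAL and PSAN) had log2 changes between 0.13 and 0.31 that missed the threshold. PSAK, which helps bind the antenna of photosystem I, read 49805, 45352 and 43176 at 6 h and 38795, 38970 and 42794 at 1 h, a log2 change of 0.20 ± 0.11 (limma adjusted p = 0.161).

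In the photosystem I antenna, LHCA1 and LHCA4 rose. LHCA1 read 39884, 36179 and 34643 at 6 h and 28208, 26067 and 27839 at 1 h, with a log2 change of 0.43 ± 0.11 (limma adjusted p = 0.00938). The signals of LHCA4 were 45455, 42727 and 40512 at 6 h and 35289, 34128 and 35433 at 1 h, a log2 change of 0.29 ± 0.11 (limma adjusted p = 0.0479). This call was lost in each fit that left out 1 of the arrays compared. Capping all signals at the lowest array maximum, 34578, gave LHCA4 a log2 change of 0.01. That cap lies below every 6 h signal of LHCA4 and below 35289 and 35433 at 1 h. It therefore removes most of the change by itself and cannot test it. LHCA2 and LHCA3 had changes of 0.24 and 0.27 and missed the threshold. LHCA5 and LHCA6, minor proteins that join photosystem I to the NADH dehydrogenase-like complex, had log2 changes of -0.13 ± 0.12 and 0.41 ± 0.16, neither of which passed.

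**Figure D2:**
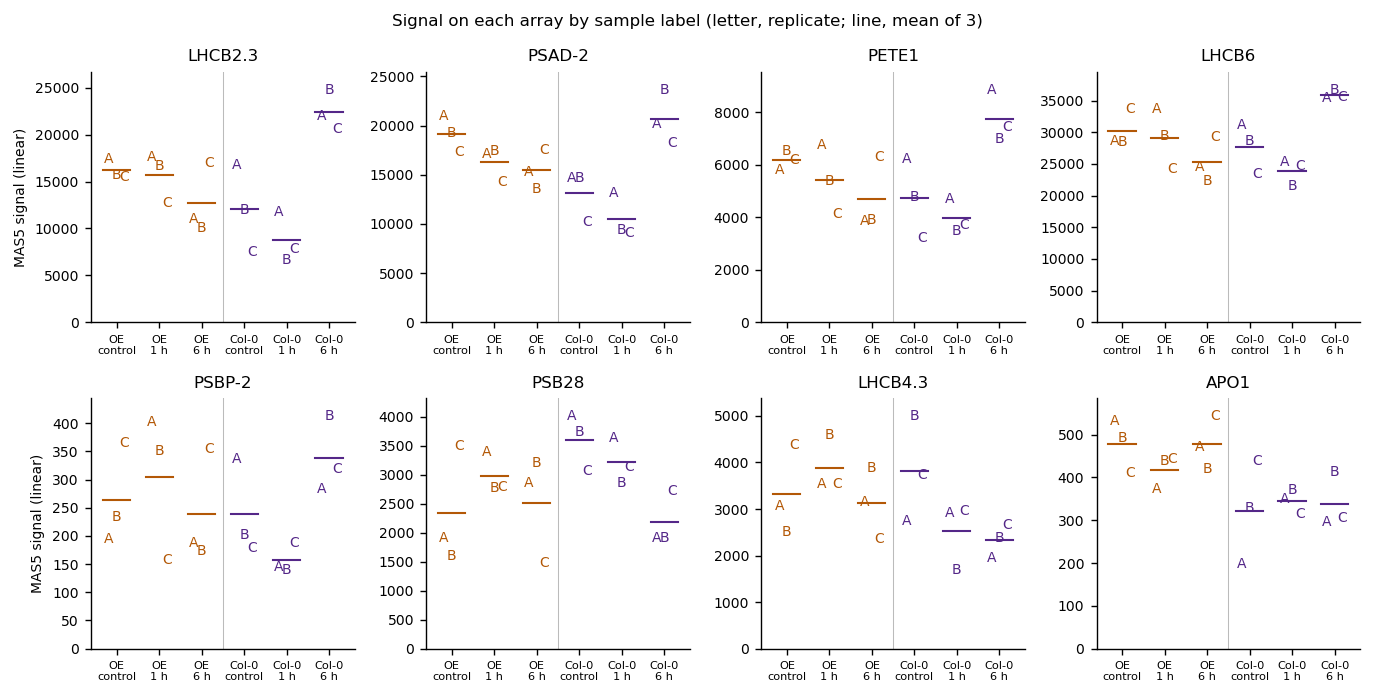
MAS5 signal on a linear axis from 0 is plotted for 8 members on every array, by sample label (OE on the left, Col-0 on the right), with each letter standing at the value of that replicate and a line at the mean of 3. In Col-0 the 6 h letters of LHCB2.3, PSAD-2, PETE1 and LHCB6 stand above all control and 1 h letters and those of PSB28 below them; the OE letters of 1 label are spread more widely for PSBP-2 and PSB28.

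Of the 13 photosystem II subunits and assembly factors, 2 rose and 1 fell at 6 h against 1 h, and 11 had a positive change. PSBP-2, one of the paired genes for the extrinsic protein P of the oxygen-evolving complex, read 337, 202 and 179 in control leaves, 145, 140 and 187 at 1 h, and 284, 412 and 318 at 6 h. The 6 h arrays lay above the 1 h arrays and overlapped the controls, and the change at 6 h against 1 h was 1.10 ± 0.24 on the log2 scale (limma adjusted p = 0.00291). PSBQ-2, for the extrinsic protein Q, read 29764, 29434 and 28079 at 6 h and 23130, 21475 and 23326 at 1 h, a log2 change of 0.36 ± 0.10 (limma adjusted p = 0.013). PSB28, which takes part in the assembly of photosystem II and is not a lasting subunit, was the member that fell. It read 4005, 3745 and 3065 in control leaves, 3640, 2862 and 3139 at 1 h, and 1901, 1916 and 2712 at 6 h, with every 6 h array below all others. Its log2 change at 6 h against 1 h was -0.58 ± 0.17 (limma adjusted p = 0.0147), and the call was lost without 1 h array A, 6 h array A or 6 h array B, where the adjusted p lay between 0.0598 and 0.0647. PSB29, a thylakoid formation factor, had a log2 change of -0.03 ± 0.13. The other 9 members (PSBO1, PSBO2, PSBP-1, PSBQA, PSBR, PSBTN, PSBW, PSBX and PSBY) had changes of 0.04 to 0.32 that did not pass. Among them PSBR, which helps the oxygen-evolving proteins to assemble, had the highest mean signal and read 32199, 31028 and 27548 at 6 h and 27940, 28410 and 28062 at 1 h, with overlap.

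The photosystem II antenna held both the largest rise and members that stayed within their spread, and 4 of its 8 members rose. LHCB2.3, one of the genes for the protein LHCB2 of the mobile antenna trimers, read 16805, 12021 and 7444 in control leaves, 11728, 6640 and 7840 at 1 h, and 21937, 24727 and 20561 at 6 h. The control arrays themselves spanned more than the distance between the control and 1 h means, yet every 6 h array lay above them. The log2 change at 6 h against 1 h was 1.40 ± 0.26 (limma adjusted p = 0.00108). LHCB6, the minor antenna protein CP24, read 35417, 36621 and 35524 at 6 h and 25240, 21556 and 24679 at 1 h, a log2 change of 0.59 ± 0.12 (limma adjusted p = 0.00158). LHCB4.2, a gene for the minor antenna protein CP29, read 31938, 31475 and 29095 at 6 h and 22611, 18309 and 18713 at 1 h, a log2 change of 0.64 ± 0.14 (limma adjusted p = 0.00268). LHCB3, found in the trimers beside the other LHCB proteins, rose with a log2 change of 0.34 ± 0.11 (limma adjusted p = 0.028). CAB3 and LHCB2.1 had changes of 0.21 and 0.24 with all 6 h arrays above all 1 h arrays, and LHCB5, the minor protein CP26, had 0.16 with overlap; none of these passed. LHCB4.3, an unusual form of CP29, read 1958, 2373 and 2667 at 6 h and 2911, 1696 and 2948 at 1 h, a log2 change of -0.08 ± 0.24.

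Of the electron carriers, PETE1 has the title plastocyanin 1 and is the only plastocyanin gene that the rule took in, so plastocyanin as a whole was not read. PETE1 read 6207, 4773 and 3223 in control leaves, 4716, 3498 and 3701 at 1 h, and 8842, 6978 and 7456 at 6 h. All 6 h arrays lay above the rest, and the log2 change at 6 h against 1 h was 0.97 ± 0.21 (limma adjusted p = 0.00268). PETC, the Rieske iron-sulphur protein of the cytochrome b6f complex, had a log2 change of -0.04 ± 0.10 with overlapping arrays. In the remaining group APO3, a relative of the photosystem I assembly factor APO1, read 243, 202 and 246 at 6 h and 138, 136 and 163 at 1 h, a log2 change of 0.66 ± 0.17 (limma adjusted p = 0.00826). APO4, another relative, had 0.60 ± 0.24 and missed the threshold with all 6 h arrays above all 1 h arrays. APO1, APO2, PSI-P (a thylakoid membrane protein) and PSAT had log2 changes from -0.04 to 0.33 and did not pass.

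Of these 16 calls, 6 passed the threshold under all other settings tried: LHCB2.3, LHCB4.2, LHCB6, PETE1, PSAD-2 and PSBP-2. The calls of LHCA4, PSAH2, LHCB3 and PSAO were the least stable, lost in 12, 11, 9 and 8 of 20 other settings. PSAH2 was lost without any 1 of the 6 arrays compared or without control B, and LHCA4 likewise. LHCB3 was lost without 1 h A, 1 h B, 1 h C, 6 h A or 6 h B, PSAO without 1 h B, 1 h C, 6 h A or 6 h B, and PSBQ-2 without 1 h B. Left out 1 at a time, the arrays of the fit gave between 11 and 24 calls among the members, the 24 without control C.

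Called members occurred at low, middle and high signals. Among the 25 members with a mean signal above 20000, 8 were called, and the median log2 change was 0.24. Of all 69 probe sets in that range 29.0% were called, with a median log2 change of 0.15 and a median size of 0.20. The probe sets counted in each range include the members. Between 10000 and 20000, 3 of 8 members were called, where 48.4% of 182 probe sets were. Up to 10000, 5 of 13 members were called, with a median size of 0.41, where 42.7% of 14572 probe sets were, with a median size of 0.45. Capping every signal at the lowest array maximum gave 18 calls among the members. The cap itself alters the values of the 10 members that exceeded it on at least 1 array, so it cannot test their changes.

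**Figure D3:**
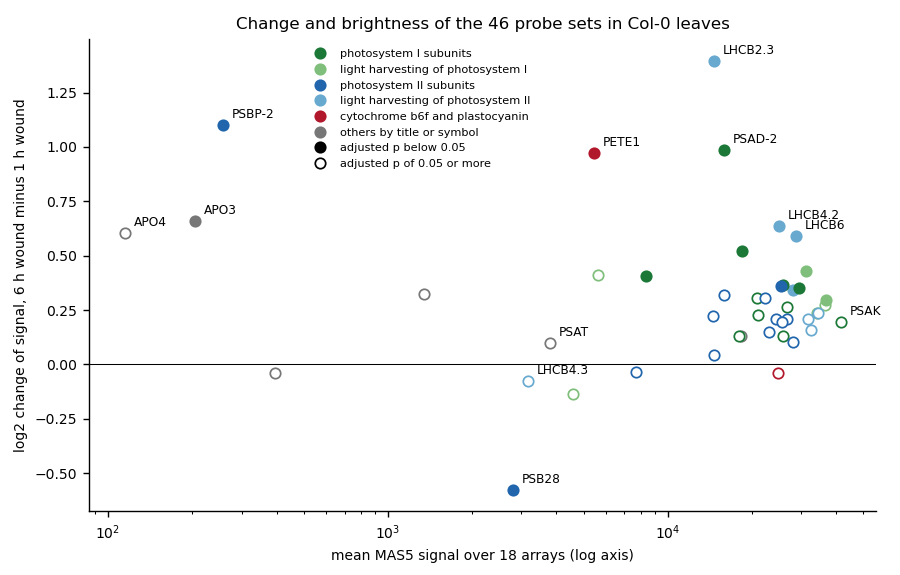
The log2 change of each of the 46 members at 6 h against 1 h in Col-0 is plotted against its mean MAS5 signal over 18 arrays on a log axis, coloured by role; filled points have an adjusted p below 0.05. Filled points occur from APO3 and PSBP-2 at the dim end to members above 20000, and the 25 members above 20000 lie between -0.04 and 0.64.

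The members include 8 pairs of genes for the same subunit or antenna protein, and within a pair the changes were often unequal. The log2 ratio of the paired genes was formed within each array and compared between 6 h and 1 h by an exact permutation test, two-sided, for which 0.1 is the smallest p that 3 against 3 arrays allow, so none could pass 0.05. The smallest adjusted value over the 8 pairs was 0.133. The ratio of LHCB2.3 to LHCB2.1 was 1.16 ± 0.25 higher at 6 h on the log2 scale (SE), with no overlap of arrays and an exact permutation p of 0.1. The probe set of LHCB2.1 has a shared-probe name, and its locus is LHCB2.2 in the RefSeq table, so related genes may enter this ratio. PSBP-2 gained 0.89 ± 0.20 on PSBP-1 and PSAD-2 gained 0.46 ± 0.14 on PSAD-1, both without overlap. In the other direction, again without overlap, LHCB4.3 changed by -0.72 ± 0.28 relative to LHCB4.2, PSBQA by -0.32 ± 0.11 relative to PSBQ-2, and PSAH-1 by -0.22 ± 0.05 relative to PSAH2. The ratios of PSAE-2 to PSAE-1 and of PSBO2 to PSBO1 overlapped between 6 h and 1 h, with differences of 0.27 ± 0.13 and 0.01 ± 0.10. Such a ratio shows unequal change of the paired probe sets and does not say which gene gave more RNA.

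**Figure D4:**
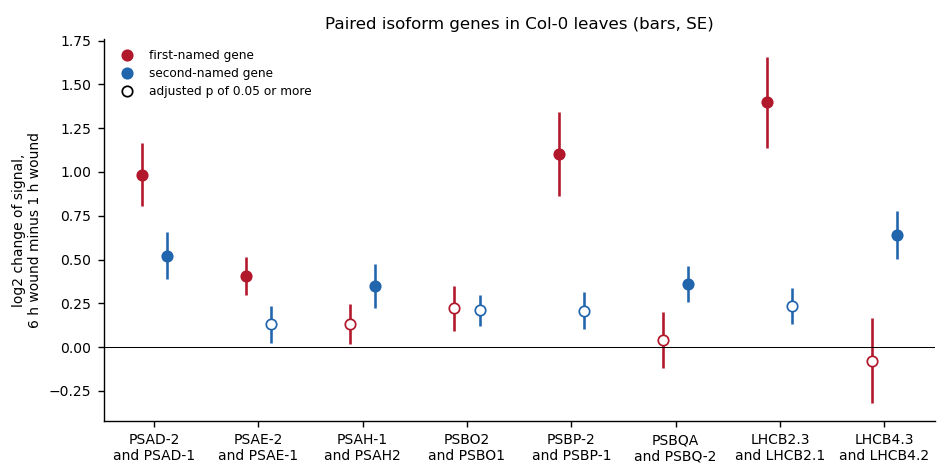
For the 8 pairs of genes for the same protein, the log2 change of each gene at 6 h against 1 h in Col-0 is plotted with bars of 1 SE, the first-named gene in red and the second-named in blue; filled points have an adjusted p below 0.05. LHCB2.3 (1.40) and PSBP-2 (1.10) stand well above their partners at 0.24 and 0.21, while the points of the PSBO pair are nearly level.

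Against unwounded leaves, Col-0 at 6 h differed in fewer members. There 5 rose and 1 fell, which is 13% of the members, where 29.0% of all probe sets were called (limma, adjusted p below 0.05), 15.4% higher and 13.6% lower, and the median log2 change was 0.12 for the members and 0.04 for all probe sets. LHCB2.3 had a log2 change of 0.96 ± 0.26 and rose (limma adjusted p = 0.0157) PETE1 with 0.76 ± 0.21 (0.0172) and PSAD-2 with 0.66 ± 0.18 (0.0147). PSAE-2 rose by 0.41 ± 0.11 and LHCB6 by 0.38 ± 0.12, with limma adjusted p of 0.013 and 0.0288. PSB28 fell by 0.74 ± 0.17 (limma adjusted p = 0.00562). For each of these 6 members, all 6 h arrays lay on one side of all control arrays. Among all members, 11 lay above and 3 below the controls without overlap. These are 30.4% of the members, where 42.6% of all probe sets had no overlap. LHCB4.3 read 1958, 2373 and 2667 at 6 h and 2744, 4989 and 3731 in control leaves, a log2 change of -0.68 ± 0.24 that missed the threshold (limma adjusted p = 0.0546). PSBP-2 overlapped the controls, with 0.54 ± 0.24.

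The control arrays limit this comparison. Control A had the highest signal of its group for 33 members and control C the lowest for 42, and the median SD of the members on the log2 scale was 0.20 in control leaves, against 0.11 at 1 h and 0.10 at 6 h. The members' median log2 change at 6 h against control was 0.18 without control A and 0.06 without control C. Without control A, 12 members were called at 6 h, with LHCA1, LHCA4, PSAD-1, LHCB4.2 and PSBP-2 now higher and LHCB4.3 now lower beside the 6 named. Without 6 h array B, 3 were called, PSB28, PETE1 and PSAE-2. Without 6 h array A the call of PETE1 was lost (limma adjusted p = 0.0728), without 6 h array B those of LHCB2.3 (0.0601) and PSAD-2 (0.0673), and without 6 h array C that of PSAE-2 (0.0536). LHCB6 was lost in 10 of 20 other settings, among them each fit without 1 of the arrays at 6 h, control B or control C.

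One hour after wounding, no member passed the test against control leaves, where 5.84% of all probe sets were called, 3.64% higher and 2.20% lower, and 5 members (10.9%) had an unadjusted p below 0.05 in limma, where 21.0% of all probe sets did. With 1 array left out the 5 became 0 (without 1 h array B) to 24 (without control C), and 1 without control B. The median log2 change was -0.16 for the members and -0.09 for all probe sets, and 5 members had a positive change. The members' median was -0.08 without control A, equal to that of all probe sets to 2 decimals, and -0.24 without control C. Under subtraction of array medians, which moved the median of all probe sets by 0.12, 15 members were positive and the members' median was -0.04. The lowest p were those of LHCA6, LHCB4.3 and PSBP-2. LHCA6 read 5778, 3573 and 4149 at 1 h and 6099, 6304 and 5581 in control leaves, a log2 change of -0.44 ± 0.16 (limma adjusted p = 0.143). LHCB4.3 read 2911, 1696 and 2948 at 1 h and 2744, 4989 and 3731 in control leaves, and PSBP-2 read 145, 140 and 187 at 1 h and 337, 202 and 179 in control leaves. Their log2 changes were -0.60 ± 0.24 and -0.56 ± 0.24, with limma adjusted p of 0.183 and 0.203. All 3 overlapped the controls. Without control C, LHCB4.2 was called at -0.46 ± 0.11, and without 1 h array A, LHCA6 was called at -0.64 ± 0.14, and leaving out any other single array gave no call. The comparisons of 1 h and of 6 h with control share the control arrays, and those of 6 h and of control with 1 h share the 1 h arrays, so they are not independent of each other.

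Other genes of photosynthesis, from 6 lists that hold no member, did not follow one direction in Col-0. Of 66 tested genes, 11 rose and 16 fell at 6 h against 1 h, and 6 rose and 17 fell at 6 h against control. These are 40.9% and 34.8% of the genes, near the 42.7% and 29.0% of all probe sets, so the counts of each list below are descriptions of its genes. In the Calvin cycle, which fixes carbon, none of 17 tested genes rose and 4 fell at 6 h against 1 h: GAPB, SBPASE, FBA1 and CP12-2. FBA1, a plastid aldolase, read 14328, 17281 and 17729 at 6 h and 24444, 25416 and 24586 at 1 h, a log2 change of -0.60 ± 0.11 (limma adjusted p = 0.000837). Its arrays did not overlap, and the median change of the 17 genes was -0.04, against 0.25 in the members. FBA2 was called lower as well at 6 h against control.

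Electron flow and its regulators divided. Of 11 genes 5 rose and 2 fell at 6 h against 1 h. NPQ1, the violaxanthin de-epoxidase of photoprotection, read 2681, 2867 and 2263 at 6 h and 365, 409 and 461 at 1 h, a log2 change of 2.66 ± 0.19 (limma adjusted p = 8.64e-07). LFNR2, a ferredoxin-NADP reductase, rose by 1.06 ± 0.15, PGRL1B of cyclic electron flow by 1.00 ± 0.15, and the phosphatase TAP38 and the kinase STN7, which act on the photosystem II antenna, by 0.86 ± 0.12 and 0.35 ± 0.11. FD1, a minor leaf ferredoxin, read 7673, 7936 and 7730 at 6 h and 16319, 12232 and 16537 at 1 h, and fell by 0.94 ± 0.13 on the log2 scale. PGR5, also of cyclic electron flow, fell by 0.72 ± 0.12. Of 3 nuclear ATP synthase genes, ATPD rose by 0.45 ± 0.16.

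Among 15 transcriptional regulators 4 rose and 5 fell at 6 h against 1 h. GLK2, an activator of photosystem genes, read 1620, 2195 and 1679 at 6 h and 1219, 887 and 951 at 1 h, a log2 change of 0.85 ± 0.17 (limma adjusted p = 0.00157). Its relative GLK1 was not called and overlapped, with 2437, 2604 and 2280 at 6 h and 2273, 2544 and 2239 at 1 h. PIF1 and PIF3, phytochrome-interacting factors, rose by 2.44 ± 0.37 and 0.61 ± 0.20, and SIG1, a sigma factor of the plastid RNA polymerase, by 0.66 ± 0.13. PIF1 and SIG1 were also the regulators that fell at 1 h against control, with log2 changes of -1.75 ± 0.37 and -0.74 ± 0.13. PIF1 was below the 40th percentile on 2 of 3 arrays at 1 h, where it read 72.4, 33.3 and 38.1, so the size of its changes is uncertain. LHY and CCA1, MYB factors of the circadian clock that peak in the morning, read 604, 353 and 487 and 1358, 859 and 1461 at 6 h. At 1 h LHY read 5322, 7514 and 7632 and CCA1 read 3456, 4422 and 4014. Their log2 changes at 6 h against 1 h were -3.84 ± 0.20 and -1.72 ± 0.21. In control leaves LHY read 5903, 7025 and 6294 and CCA1 read 3500, 5363 and 4158. Both were thus lower at 6 h than in control leaves too, a comparison in which 13% of the members were called. The part of the clock genes in the members' change was not tested. SIG5 (-1.96), GNL (-1.34) and HY5 (-1.19) fell as well at 6 h against 1 h, GNL and HY5 with 1 of 3 arrays at 6 h below the 40th percentile.

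Of 8 stress proteins that resemble antenna proteins, 3 fell and none rose at 6 h against 1 h. ELIP2, an early light-induced protein, read 88, 91 and 68 at 6 h and 969, 456 and 820 at 1 h, a log2 change of -3.13 ± 0.25 with 1 of 3 arrays at 6 h below the 40th percentile, and ELIP1 and SEP2 had -1.74 ± 0.22 and -0.63 ± 0.12. Of 12 genes of photosystem repair and assembly, 1 rose and 2 fell. The gene with the symbol CAO, which encodes the signal recognition particle protein that delivers antenna proteins to the thylakoid, rose by 0.60 ± 0.14. The thylakoid proteases FTSH1 and FTSH8, which clear damaged photosystem II proteins, fell by 0.50 ± 0.13 and 0.53 ± 0.14.

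Markers of other leaf cells and states also moved between 6 h and 1 h in Col-0, and their part in the members' change was not tested. None of the 3 mesophyll markers passed the test, and their summed signals ran from 96141 to 99478 at 6 h, with a range of 98749 to 103111 at 1 h. The summed signal of 5 guard cell genes ran from 1106 to 1374 at 6 h, above the range of 664 to 733 at 1 h. The potassium channel KAT1 carried most of this difference, with 726, 722 and 775 at 6 h and 220, 184 and 242 at 1 h, and it was the 1 of 4 tested that rose. MYB60 and FAMA overlapped, HT1 read 9.8, 24.3 and 46.1 at 6 h and 34.5, 84.6 and 62.5 at 1 h and was too dim to be tested, and SLAC1 was below the 40th percentile of all arrays of both groups. The phloem sum lay within 12129 to 14270 at 6 h, above 10046 to 11582 at 1 h, with 0 of 4 called. The summed signal of 3 root genes was 178 to 1118 at 6 h, above 75.8 to 118 at 1 h, with PYK10 higher but below the 40th percentile on 2 of 3 arrays at 1 h, and that of 3 floral genes was 71.1 to 143 at 6 h and 82.2 to 99.6 at 1 h, with none called. The epidermal sum lay within 1015 to 1582 at 6 h, below 1617 to 1712 at 1 h. Of its 3 genes FDH fell, while ATML1 and PDF1 had log2 changes of 0.04 and 0.74 with overlapping arrays. Of the senescence genes SEN1 and ORE1 rose and SGR1 fell, the sum lay within 2506 to 3893 at 6 h, above 1838 to 2070 at 1 h, and SAG12, its defining late marker, was below the 40th percentile on all arrays.

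Over all labels, OE leaves and Col-0 leaves differed in no member at an adjusted p below 0.05 (limma on 18 arrays, mean of 3 OE groups minus mean of 3 Col-0 groups), where 4.84% of all probe sets were called, 3.01% higher and 1.83% lower, and 8 members (17.4%) had an unadjusted p below 0.05, where 22.7% of all probe sets did. With 1 array left out the 8 became 4 (without Col-0 control A, among others) to 17 (without Col-0 control C), and 21 with array medians subtracted. The error of this fit takes in the scatter within OE labels, where 6 of the 9 arrays were nearest to an array of another label. A difference could therefore be missed, and the absence of calls does not show that the genotypes are equal. The median log2 difference was -0.07 for the members and 0.05 for all probe sets, with 13 members positive. That direction depended on the scaling, since quantile normalization left 31 members positive and subtracting the medians of the arrays left 9. APO1, an assembly factor needed for the iron-sulphur clusters of photosystem I, came closest. Its signals on the arrays labelled OE control were 531, 492 and 411, on those labelled OE 1 h 372, 438 and 442, and on those labelled OE 6 h 470, 421 and 542. In Col-0 the controls read 198, 329 and 438, the 1 h arrays 349, 371 and 314, and the 6 h arrays 296, 414 and 305. The genotypes overlapped, Col-0 control A was the lowest array, and the log2 difference was 0.47 ± 0.13 (limma adjusted p = 0.0512). Without Col-0 control C, OE control C or OE 6 h B, the adjusted p of APO1 was 0.0164, 0.039 and 0.0468. PSAD-2 and PSBR had differences of 0.26 ± 0.10 and -0.15 ± 0.06, with limma adjusted p of 0.136 and 0.148.

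Within OE the members that moved in Col-0 did not line up with the treatment labels, and no test was made there. LHCB2.3 read 17448, 15717 and 15455 on the arrays labelled OE control, 17656, 16617 and 12732 on those labelled 1 h, and 11022, 10056 and 17027 on those labelled 6 h. PETE1 read 5801, 6517 and 6185, then 6752, 5377 and 4126, then 3844, 3911 and 6285 in the same order. For both genes the array labelled OE 6 h C lay near the arrays labelled OE control, above the other 2 arrays of its label. PSB28 read 1902, 1596 and 3497 on the arrays labelled OE control, 3387, 2772 and 2790 on those labelled 1 h, and 2861, 3210 and 1473 on those labelled 6 h. The arrays labelled OE control A, OE control B and OE 6 h C were thus the lowest, at or below the lowest Col-0 6 h array to within 1 signal unit, and the other 6 lay between 2772 and 3497. PSAD-2 read 20935, 19194 and 17354, then 17135, 17402 and 14260, then 15253, 13503 and 17554, and LHCB6 read 28572, 28477 and 33641, then 33653, 29464 and 24194, then 24518, 22306 and 29212. PSBP-2 read 194, 233 and 365, then 403, 351 and 158, then 188, 174 and 354. For PSBP-2 and LHCB6 the arrays labelled OE control C and OE 1 h A were the 2 highest, and OE 6 h B was the lowest for LHCB6 and lowest but 1 for PSBP-2.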

How the data were processed

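The deposited values are MAS5 signal intensity on a linear scale, per the submitters' processing notes, and the values show that the authors scaled them: the mean of an array, trimmed by 2% at both ends, is near 500. The version of MAS5 and the genome build are not given in the sources used here. Another 90 columns of values were not used, because their names do not tie them to a sample. The members and gene lists were chosen with earlier results of these data known. Members were found through the deposited annotation, and all 46 loci matched the RefSeq gene table. No sequence is shown.

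Signals were taken to log2, control probe sets were left out, and probe sets at or above an array's 40th percentile on 3 arrays or more were kept, which left 14823. limma 3.58.1 in R 4.3.3 (lmFit, eBayes with trend, two-sided, Benjamini-Hochberg over the probe sets kept) was fitted with a mean per labelled group to the 9 Col-0 arrays, with 6 residual degrees of freedom, and for OE against Col-0 to all 18 arrays, with 12. Named were the members called in each comparison (the 3 of lowest p where none was), the brightest and the most variable member of each role, paired genes, members with other functions, and genes of the 6 lists. The fits of 6 h against 1 h and of OE against Col-0 were also run on simulated data with the same noise for all probe sets. That setting is simpler than these data, so the run does not gauge the error of the calls reported here. Other settings tried were quantile normalization, subtracted array medians, addition of 16 before log2, leaving out the filter or raising it to the 60th percentile, no trend, array weights, letters as a block, other sets of arrays, each array left out and, chosen after seeing the data, capped signals. Figures used matplotlib 3.10.9.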

Additional observations from a re-analysis of the deposited data

How the results depend on the processing

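At 6 h against 1 h in Col-0, 16 members were called as reported, 9 with array medians subtracted and 10 with no filter on dim probe sets, where 22746 were adjusted over, 24 with array weights, 23 with only the 6 arrays compared, and 11 to 24 with 1 array left out. At 6 h against control, 6 were called, 10 with array weights, 3 in the model of 18 arrays and 3 to 12 with 1 array left out. At 1 h, 0 were called, 2 (LHCA6 and LHCB4.3, both lower) with array weights and 0 to 1 with 1 array left out. For OE against Col-0, 0 were called, 1 after quantile normalization (PSAD-2, higher), 1 with the filter at the 60th percentile (APO1, higher), 3 with array weights (APO1 and PSAD-2 higher, PETC lower), 1 without the OE arrays lettered C (APO1, higher), and 0 to 1 with 1 array left out. Of 440 values of single called members under these settings, 370 kept their call, 70 lost it with the same direction and 0 reversed. With the replicate block, 0, 6, 17 and 0 members were called at 1 h, at 6 h against control, at 6 h against 1 h and in OE. Over all probe sets kept, arrays of a letter correlated between -0.08 and 0.10 in their deviations from group means in Col-0. In OE the range was -0.60 to 0.06. Letter A was highest for 33, 25 and 17 of the 46 members in Col-0 control, 1 h and 6 h arrays. On the OE arrays so labelled it was highest for 23, 34 and 27. Whether a letter marks a shared batch was not tested. Over all probe sets, the model of 18 arrays called 4 at 1 h (866 as reported) and 2351 at 6 h (4294), and array weights called 1304 at 1 h. Leaving out 1 h array B or C gave 376 and 496 at 1 h. In OE against Col-0, 717 were called, 3112 with array weights, 2323 without the arrays lettered C, 415 without Col-0 control B and 169 with no term for treatment. The share of calls that were higher was 83.9% at 1 h with medians subtracted (62.4% as reported) and 35.0% in OE (62.2%), 50.3% there after quantile normalization. The cause of these shifts was not tested.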

Other observations

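The chloroplast's own genes for photosystem, cytochrome b6f and related subunits have 24 probe sets on the array that the rule does not take in, because they carry no symbol. Whether these probe sets read chloroplast RNA as the others read nuclear RNA was not tested, so the 2 kinds are not directly comparable here. At 6 h against 1 h in Col-0 none of them rose and 2 fell, where 42.7% of all probe sets were called, and their median log2 change was -0.15. The probe set of psaJ, a small subunit of photosystem I, read 4257, 4598 and 4715 at 6 h and 10007, 7317 and 8095 at 1 h, without overlap, a log2 change of -0.89 ± 0.16 (limma adjusted p = 0.000668). psaC, the subunit that holds the terminal iron-sulphur clusters, read 655, 719 and 559 at 6 h and 1082, 1183 and 732 at 1 h, a log2 change of -0.61 ± 0.21 (limma adjusted p = 0.0352). Both encode subunits of photosystem I. The other chloroplast probe sets for this complex, psaA, psaB and psaI, were not called, with log2 changes of 0.11, -0.04 and -0.34.

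At 6 h against control psaJ alone was called, with a log2 change of -0.68 ± 0.16 (limma adjusted p = 0.00662), where 29.0% of all probe sets were called. At 1 h against control 0 of the 24 were called, where 5.84% of all probe sets were. There 0 had an unadjusted p below 0.05 in limma, where 21.0% of all probe sets did. In OE against Col-0 0 were called, where 4.84% of all probe sets were. There 4 had an unadjusted p below 0.05 in limma, where 22.7% of all probe sets did. In OE against Col-0, PGK1 of the Calvin cycle was lower by a log2 difference of -0.33 ± 0.07 (limma adjusted p = 0.0103) and HCF136, an assembly factor of photosystem II, by -0.20 ± 0.05 (limma adjusted p = 0.0428). These were the genes of the 6 lists that passed in that comparison, out of 66.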
